A study of Mus musculus with 6 samples.

Results

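The AP-1 transcription factor family was represented by 10 genes, which were followed in mouse macrophages challenged with the fungus *Candida albicans*. The members were chosen by their symbols from the deposited gene table: Fos, Fosb, Fosl1 and Fosl2, which encode Fos-type proteins, Jun, Junb and Jund, which encode Jun-type proteins, and Atf3, Batf and Maff, which encode their more distant relatives. These are 10 of the 54532 genes in the table. The rule itself used no measured value, but the family was proposed with earlier results of these data known.

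AP-1 is not 1 protein but a set of dimers. Its subunits carry a basic region that touches DNA and a leucine zipper that joins a pair of subunits. Fos-type proteins do not form stable pairs with each other and need a Jun-type partner, whereas Jun-type proteins can also pair among themselves. Many of these genes belong to the immediate early class, which is switched on without new protein synthesis by MAP kinases after a cell senses growth factors, stress or microbes, and their transcripts are short-lived. In macrophages, receptors for fungal cell walls signal through Syk, Card9 and the MAP kinases, and AP-1 acts with NF-kB on genes of inflammation and tissue remodelling.

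RNA from 3 wild type (WT) libraries, replicates 1, 2 and 3, was compared with RNA from 3 progranulin knockout (PGRN KO) libraries, replicates 4, 5 and 6. Progranulin is a secreted glycoprotein encoded by Grn. The labels give strain C57BL/6J for both genotypes and describe macrophages of the peritoneal cavity, plated at 2000000 cells per well, kept overnight and then exposed for 6 h to *C. albicans* at 1 fungal cell per macrophage. All 6 libraries are labelled as challenged, although the titles also call the WT libraries controls, and unchallenged cells were not analysed here. The question was therefore how far the 2 genotypes differ during challenge. The values do not show how far the challenge itself moved any gene. In the text of the study the sequenced cells are described as bone marrow-derived and another ratio of fungus to cells is given, so which cells were sequenced is unsettled. The PGRN KO mice lacked progranulin in every cell, and they came from another supplier than the WT mice, so genotype and supplier cannot be told apart. No source used here ties a library to its own animal or culture, and the p-values measure the spread between these libraries, which may be technical.

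The knockout was visible in the data. Grn (chr11:102430315-102437048, GRCm38) was at 323.5, 336.6 and 325.0 FPKM in WT and at 0.0166, 0 and 0.0167 FPKM in PGRN KO, which corresponded to 1, 0 and 1 fragments. FPKM are fragments divided by gene model length and by library size. The libraries held between 15996786 and 17551619 fragments. PGRN KO replicate 6 stood apart: compared with the mean of PGRN KO replicates 4 and 5, its log2(FPKM + 1) was shifted by a median of 0.38 in the 1777 tested genes with the shortest models and of -0.32 in the 1777 with the longest. Each member is therefore given with that library and, where it matters to the call, without it. Macrophage genes were abundant in both groups, with 8 markers summing to 11620 to 12560 FPKM in WT and 10440 to 14380 FPKM in PGRN KO. Most of that sum came from Lyz2 and Cd14. Among the 8, Csf1r was lower in PGRN KO (-0.38, limma adjusted p = 0.0178) and Mertk was higher (0.81, limma adjusted p = 0.0064). The others did not pass. The 6 markers of large peritoneal macrophages summed to 332.3 to 352.9 FPKM in WT and 292.2 to 311.5 FPKM in PGRN KO, most of it from Cd9, which was lower in each PGRN KO library but did not pass (limma adjusted p = 0.139). Of these markers, Icam2 was higher in PGRN KO (0.57, limma adjusted p = 0.00914). Gata6, the factor that defines these cells, overlapped between groups at 3.78 to 4.26 and 3.84 to 5.07 FPKM. Prg4 overlapped as well, at 12.7 to 16.2 FPKM in WT and 10.4 to 14.3 FPKM in PGRN KO. Timd4 and Alox15 were near 0, at most 0.204 FPKM, in all 6 libraries.

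The AP-1 genes were lower in PGRN KO in 9 of 10 cases. All 10 had a mean of at least 1 FPKM and entered the fit over 8882 genes with limma. At an adjusted p under 0.05, 7 were lower in PGRN KO (Fos, Fosb, Fosl1, Jun, Atf3, Batf and Maff), compared with 13.8% of the genes tested. No member was higher, compared with 10.4% of the genes tested. Fosl2, Junb and Jund did not pass. In 9 members, Jund being the exception, every PGRN KO library was below every WT library, a pattern found in 27.6% of the genes tested. The median log2 fold change over the 10 members was -0.61, beside -0.03 over the genes tested. Without PGRN KO replicate 6, 9 members passed as lower, with Fosl2 and Junb added, while the share of genes tested that passed as lower was 25.1%. Without WT replicate 1, 4 members passed as lower (Fos, Fosb, Fosl1 and Maff), beside 4.30% of the genes tested. Fold changes are on the log2(FPKM + 1) scale, which understates the change of genes with low values. The cells were measured in bulk, so fewer cells that express a gene and less RNA per cell cannot be told apart.

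**Figure D1:**
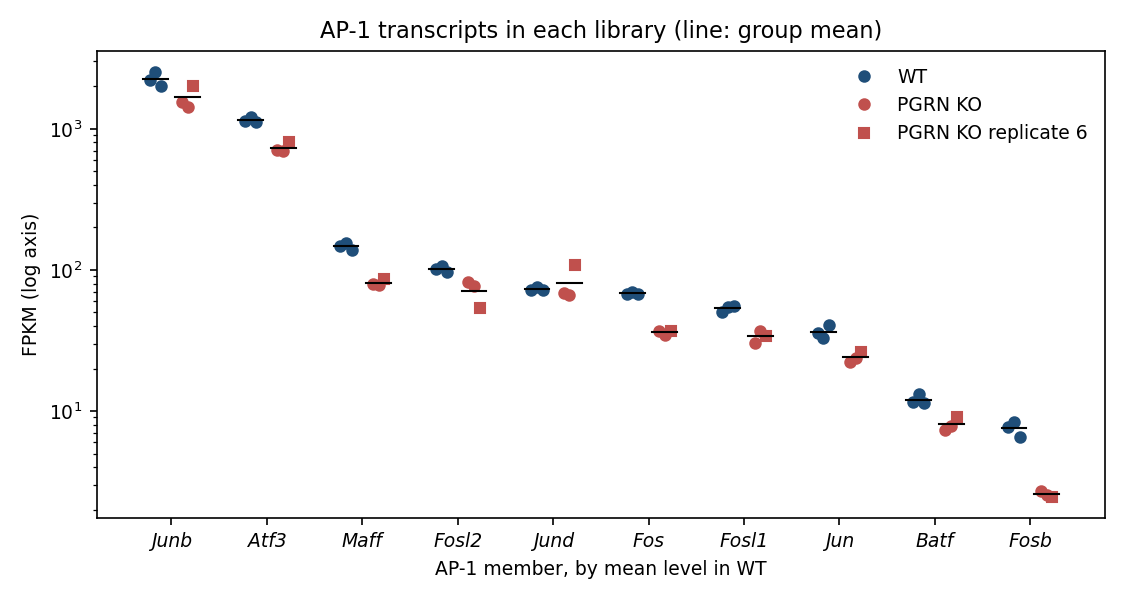
FPKM of the 10 AP-1 members in each library, on a log axis, with WT libraries in blue, PGRN KO libraries in red (replicate 6 as squares) and the group mean as a line. Junb and Atf3 lie far above the other 8, and Jund is the member whose groups overlap.

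The members spanned a wide range of transcript levels. Junb, at a WT mean of 2253 FPKM, was the most abundant. By its mean over all 6 libraries, Junb lay above 99.8% of the genes tested. Atf3, at 1156 FPKM in WT, was the second. In WT the order went on from Maff to Fosl2, Jund, Fos, Fosl1, Jun, Batf and Fosb, and each neighbouring pair in that order was separate over the 3 libraries. Fosb, the least abundant, lay near the middle of the genes tested, above 45.5% of them by its mean over all 6 libraries.

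The order was nearly the same in PGRN KO, with Jund and Fosl2 changing places. There, Maff and Jund overlapped, with a ratio of means of 1.00, as did Jund and Fosl2 (1.14) and Fos and Fosl1 (1.07). Junb and Atf3 together dominated the pool in both groups. Junb made up 57.5% ± 1.77 of the summed FPKM of the members in WT and 60.7% ± 2.57 in PGRN KO, and Atf3 made up 29.6% ± 1.06 and 26.9% ± 1.5 (SD, n = 3 each). The share of Jund was 1.88% ± 0.104 in WT and 2.91% ± 0.421 in PGRN KO. The sum over the 10 members was 3839, 4267 and 3620 FPKM in WT and 2588, 2463 and 3172 FPKM in PGRN KO, or 70.1% of the WT mean.

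Promoter sequence was available from RefSeq for 9 of the 10 members, in 11 windows around transcription starts (GRCm38.p6). Fosl1 was not among them. The letters TGACG, a core of the cyclic AMP response element that ATF and CREB proteins and some Jun dimers recognise, were present on either strand in 7 of the 11 windows, from 6 members, beside 20.8% of all 32851 windows. This search was added after the sequences had been read. For each of these windows the stretch with the match nearest to the start is shown, so that a reader can see the sequence around it. Fos holds a second match farther from the start, which is not shown. Each stretch is 50 bases long and written 5′ to 3′ on the strand of the gene, and capitals mark TGACG or its reverse complement.
Atf3, chr1:191183334-191183383, minus strand: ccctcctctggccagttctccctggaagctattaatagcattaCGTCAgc
Batf, chr12:85686600-85686649, plus strand: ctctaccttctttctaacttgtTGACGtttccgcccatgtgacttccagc
Fos, chr12:85473802-85473851, plus strand: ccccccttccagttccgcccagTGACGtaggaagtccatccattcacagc
Fosb, chr7:19310078-19310127, minus strand: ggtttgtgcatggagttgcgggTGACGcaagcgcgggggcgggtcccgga
Junb, chr8:84978827-84978876, minus strand: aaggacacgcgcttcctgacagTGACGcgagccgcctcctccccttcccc
Maff, first start, chr15:79347470-79347519, plus strand: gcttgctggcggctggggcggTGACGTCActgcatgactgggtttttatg
Maff, second start, chr15:79348258-79348307, plus strand: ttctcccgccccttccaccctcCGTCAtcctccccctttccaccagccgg

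The stretches of Batf, Fos, Fosb and Junb lie before the first base of the gene in the annotation. That of Atf3 lies before the RefSeq start, and its last 7 bases, which include the match, fall in the first exon of an Atf3 transcript in GENCODE M21, and both of Maff lie within the gene, before the start of 1 transcript and in introns of other transcripts. The full palindrome TGACGTCA occurred in 1 member window, that of the first Maff start, beside 1.79% of all windows, and it overlaps the TGACG search. The AP-1 site itself, searched as TGANTCA, was found in 0 of the 11 windows and in 7.81% of all windows. The CArG box, bound by serum response factor, was found in 0 of 11 and in 1.63%. An NF-kB site was found in 4 windows, from Fos, Fosb, Fosl2 and Maff, and in 8.46% of all windows. A match describes these letters only and was not tested as a site. The windows are short, that of Fos being chr12:85473640-85473939. Sites outside the windows or with other letters were not searched.

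The Fos-type genes differed between genotypes to unequal degrees. Fos (chr12:85473890-85477273, plus strand) encodes c-Fos, the first AP-1 subunit to appear in many stimulated cells. It was at 67.2, 70.0 and 67.8 FPKM in WT and at 37.0, 34.7 and 36.9 FPKM in PGRN KO. The 2 groups were tight and far apart, at 68.3 ± 1.47 and 36.2 ± 1.299 FPKM (SD, n = 3 each), so that PGRN KO reached 52.9% of WT. The log2 fold change was -0.90 ± 0.08 (SE), with a 95% interval from -1.09 to -0.71 and a limma adjusted p of 0.0014. The call held under each of the 17 alternatives tried, with adjusted p between 2.93e-05 and 0.0150.

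Fosb (chr7:19302696-19310051, minus strand), a close relative of Fos known for its accumulation in chronically stimulated neurons, showed the lowest share of WT among the 10 members. It was at 7.68, 8.33 and 6.60 FPKM in WT and at 2.72, 2.52 and 2.475 FPKM in PGRN KO. The highest PGRN KO library was well below the lowest WT library, and the PGRN KO mean was 34.1% of the WT mean. The log2 fold change of -1.25 ± 0.10 (limma adjusted p = 0.00119) stood at the 0.5 percentile of the genes tested. With a pseudocount of 0.1 in place of 1 it became -1.51. It passed under each of the 17 alternatives, and the fragments behind it numbered 743 to 802 in WT and 267 to 298 in PGRN KO.

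Fosl1 (chr19:5447703-5455945, plus strand) encodes Fra-1, a Fos-related subunit that lacks the strong activation domain of c-Fos and is itself a target of AP-1. It was at 50.2, 54.2 and 55.6 FPKM in WT and at 30.2, 37.2 and 33.9 FPKM in PGRN KO. The groups did not overlap, and PGRN KO reached 63.4% of WT. On the log2 scale it differed by -0.65 ± 0.10 (limma adjusted p = 0.00726), and it passed under each of the 17 alternatives, with adjusted p up to 0.0404.

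Fosl2 (chr5:32135801-32157842, plus strand) encodes Fra-2 and was the most abundant of the Fos-type genes. It was at 101.0, 106.5 and 96.4 FPKM in WT and at 82.2, 77.1 and 53.4 FPKM in PGRN KO. Every PGRN KO library was below every WT library, but PGRN KO replicate 6 lay far below the other two. Its log2 fold change of -0.53 ± 0.17, with an interval from -0.93 to -0.14, missed the threshold (limma adjusted p = 0.0576). Without PGRN KO replicate 6 the difference was smaller, at -0.34, and passed (adjusted p = 0.00765), and over the 17 alternatives, 5 of which it passed, the adjusted p ran from 0.00493 to 0.174. Fosl2 also has the longest gene model of the members, 9680 bases, in the length class that was low in that library.

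The sum of the 4 Fos-type genes was 226.1, 239.0 and 226.5 FPKM in WT and 152.1, 151.5 and 126.6 FPKM in PGRN KO, or 62.2% of WT. Fosb was the member that stood lowest against its relatives in PGRN KO. The ratio of Fosb to Fosl2 was 0.0761, 0.0782 and 0.0684 in WT and 0.0331, 0.0327 and 0.0464 in PGRN KO, with no overlap. In an exact two-sided permutation test this gave p = 0.1, which is the smallest p that 3 libraries against 3 allow.

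**Figure D2:**
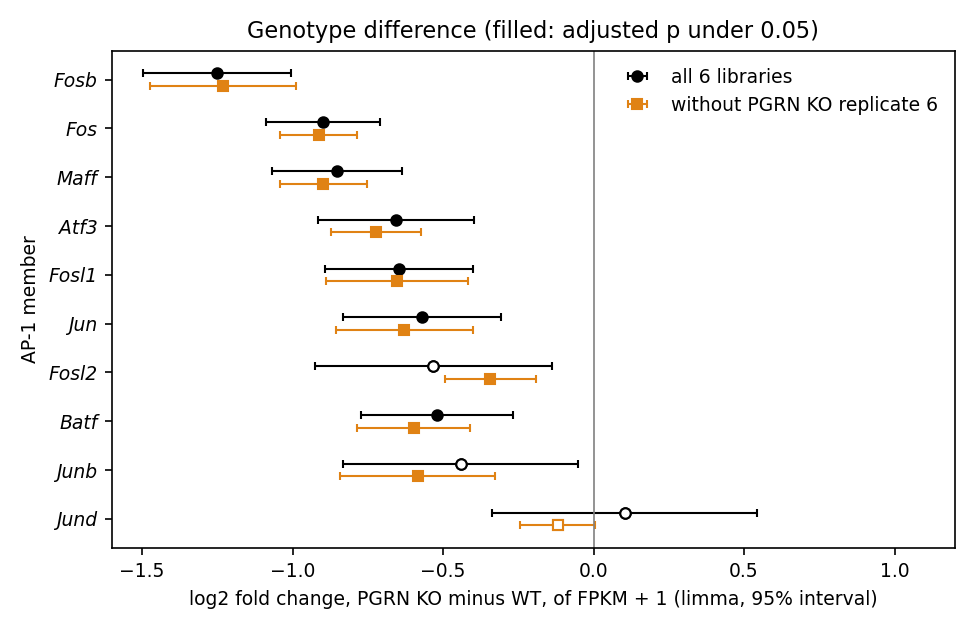
Log2 fold change (PGRN KO minus WT, FPKM + 1) of each member with its 95% interval from limma, with all 6 libraries (circles) and without PGRN KO replicate 6 (squares). Filled symbols have an adjusted p under 0.05, and Fosl2 and Junb become filled without replicate 6 while Jund is unfilled in both fits.

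Of the Jun-type genes, 1 passed as lower. Jun (chr4:95049034-95052222, minus strand) encodes c-Jun, the partner of Fos and the substrate that gives JNK its name. It was at 35.6, 32.9 and 40.5 FPKM in WT and at 22.3, 23.9 and 26.3 FPKM in PGRN KO. The groups did not overlap, and PGRN KO reached 66.4% of WT. Its log2 fold change was -0.57 ± 0.11 (limma adjusted p = 0.0131). The call was lost without WT replicate 1 (-0.58, adjusted p = 0.0629) and without WT replicate 3 (-0.49, adjusted p = 0.0560), while 15 of the 17 alternatives kept it, with adjusted p between 0.00052 and 0.0629.

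Junb (chr8:84974484-84978718, minus strand) encodes a Jun-type subunit that is strongly induced in activated macrophages. It was at 2213, 2528 and 2017 FPKM in WT and at 1556, 1438 and 2013 FPKM in PGRN KO. Replicate 6 of PGRN KO reached almost the lowest WT value, so that the groups were barely separate. The log2 fold change of -0.44 ± 0.17, with an interval from -0.83 to -0.05, missed the threshold (limma adjusted p = 0.0946). Without PGRN KO replicate 6 it was -0.58 and passed (adjusted p = 0.00758). It passed 6 of the 17 alternatives, with adjusted p from 0.000946 under quantile normalisation to 0.285.

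Jund (chr8:70698949-70700616, plus strand) encodes a Jun-type subunit that many resting cells already hold and that is less inducible than Jun and Junb. It was at 71.8, 76.2 and 72.1 FPKM in WT and at 68.4, 66.5 and 107.8 FPKM in PGRN KO. The first 2 PGRN KO libraries lay just below WT and replicate 6 lay far above it. With all 6 libraries its log2 fold change was 0.10 ± 0.19, with an interval from -0.34 to 0.54 (limma adjusted p = 0.709). Without PGRN KO replicate 6 it was -0.12 (adjusted p = 0.111), and it passed none of the 17 alternatives, over which the adjusted p ran from 0.106 to 0.982.

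The sum of the Jun-type genes was mostly Junb, at 2320, 2637 and 2130 FPKM in WT and 1647, 1529 and 2147 FPKM in PGRN KO, or 75.1% of WT, with overlap between the groups. Without Junb the sum was 107.4, 109.1 and 112.6 FPKM in WT and 90.6, 90.4 and 134.0 FPKM in PGRN KO, or 95.7% of WT, with replicate 6 above each WT library. The ratio of Jun to Jund was 0.496, 0.432 and 0.562 in WT and 0.326, 0.359 and 0.244 in PGRN KO, without overlap (exact two-sided permutation p = 0.1, the smallest possible). The ratio of Fos to its main partner Jun was 1.89, 2.13 and 1.67 in WT and 1.66, 1.45 and 1.405 in PGRN KO. These groups were separate by a narrow margin (exact two-sided permutation p = 0.1). The ratio of Atf3 to Junb, the 2 most abundant members, was 0.5125, 0.483 and 0.552 in WT and 0.452, 0.4845 and 0.399 in PGRN KO, with overlap (exact two-sided permutation p = 0.2). With the ratio of Maff to Mafk, 5 ratios were tested, and the p adjusted over them was 0.125 for those at 0.1 and 0.2 for Atf3 to Junb.

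**Figure D3:**
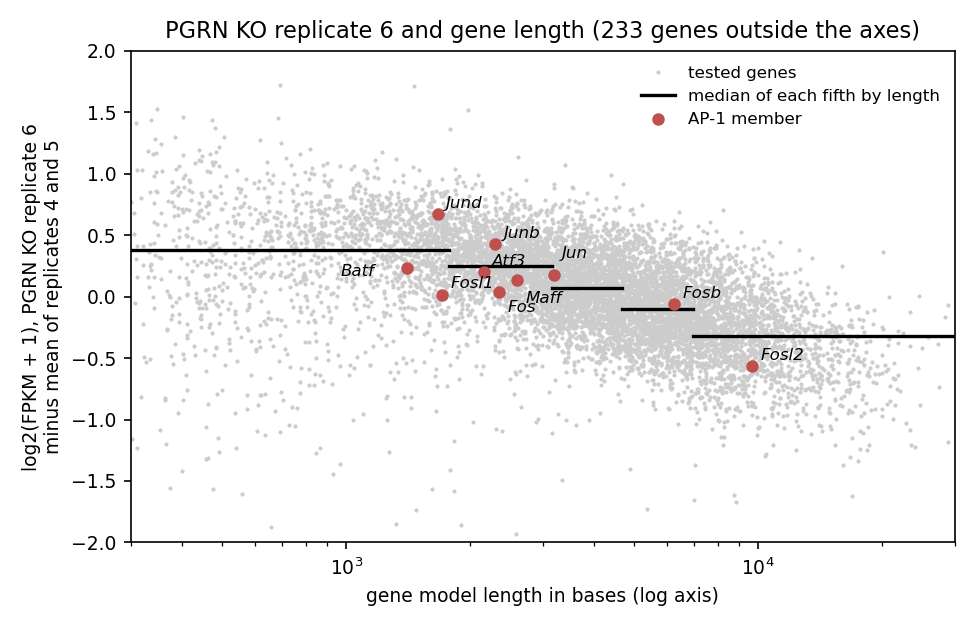
Deviation of PGRN KO replicate 6 from the mean of PGRN KO replicates 4 and 5 in log2(FPKM + 1) against gene model length in bases (log axis), with the tested genes in grey, the median of each of 5 length classes as black lines and the AP-1 members in red (233 genes lie outside the axes). The medians go from 0.38 in the shortest class to -0.32 in the longest, with Jund at 0.67 and Fosl2 at -0.57.

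The 3 members that missed the threshold were those in which PGRN KO replicate 6 deviated most from its group. On the log2(FPKM + 1) scale it was above the mean of PGRN KO replicates 4 and 5 by 0.67 for Jund and by 0.43 for Junb, and its deviation was -0.57 for Fosl2. For the other 7 it was between -0.06 for Fosb and 0.23 for Batf. Gene models of 1668 bases for Jund and 9680 bases for Fosl2 put these genes in the shortest and longest of 5 length classes, where the deviation over the genes tested went the same way. Fosl1, at 1707 bases also in the shortest class, deviated by only 0.02. Junb, at 2301 bases, is in the second shortest class, where the median deviation was 0.25. Fos, Atf3 and Maff are in that class too and deviated by 0.04, 0.20 and 0.13. With 3 libraries per group, a deviation of 1 library itself widens the standard error. The part of gene length in single members was not tested. With a correction for length, fitted over all genes, 9 members passed as lower, beside 17.09% of all genes tested. In the main fit these were 7 members and 13.8%.

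The stress-induced and lineage-linked relatives were lower as well. Atf3 (chr1:191170296-191218039, minus strand) encodes a factor that is induced by stress and by Toll-like receptors and that restrains inflammatory genes in macrophages. It was at 1134, 1222 and 1113 FPKM in WT and at 703, 697 and 803 FPKM in PGRN KO. The 2 groups were far apart, and the PGRN KO mean was 63.5% of the WT mean. This was a log2 fold change of -0.66 ± 0.11, with an interval from -0.91 to -0.40 (limma adjusted p = 0.00818). It passed 16 of 17 alternatives and was lost without WT replicate 1 (-0.67, adjusted p = 0.0525, in a range that began at 0.000115).

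Batf (chr12:85686669-85709087, plus strand) encodes a small subunit without an activation domain that pairs with Jun-type proteins and binds DNA together with IRF4 or IRF8. It was at 11.6, 13.1 and 11.3 FPKM in WT and at 7.39, 7.78 and 9.095 FPKM in PGRN KO. The groups did not overlap, and PGRN KO reached 67.3% of WT. The log2 fold change of -0.52 ± 0.11 (limma adjusted p = 0.0159) was the least stable of the 7 calls. It was lost without WT replicate 1 (-0.54, adjusted p = 0.0659), WT replicate 2 (-0.46, 0.0736), WT replicate 3 (-0.56, 0.0522) or PGRN KO replicate 4 (-0.47, 0.0509), and the lowest adjusted p over the 17 alternatives was 0.000449. With 180 to 287 fragments per library, Batf had the fewest fragments of the members.

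Maff (chr15:79346621-79359076, plus strand) encodes a small Maf protein, which has the zipper and the DNA-binding region but no activation domain and pairs with NRF2 and its relatives as well as with itself. It was at 147.8, 155.3 and 139.4 FPKM in WT and at 79.3, 78.0 and 86.2 FPKM in PGRN KO. The groups were far apart, at 147.5 ± 7.95 and 81.2 ± 4.42 FPKM (SD, n = 3 each), and PGRN KO reached 55.0% of WT. The difference on the log2 scale was -0.85 ± 0.09 (limma adjusted p = 0.00206), and it passed each of the 17 alternatives, with adjusted p up to 0.0231. Its sister gene Mafk, named outside the rule for named genes, was at 63.3 ± 2.10 and 46.7 ± 4.23 FPKM. Mafk was lower too (-0.43, limma adjusted p = 0.0201). The ratio of Maff to Mafk was 2.38, 2.36 and 2.25 in WT and 1.75, 1.80 and 1.68 in PGRN KO, with no overlap (exact two-sided permutation p = 0.1, the smallest possible).

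**Figure D4:**
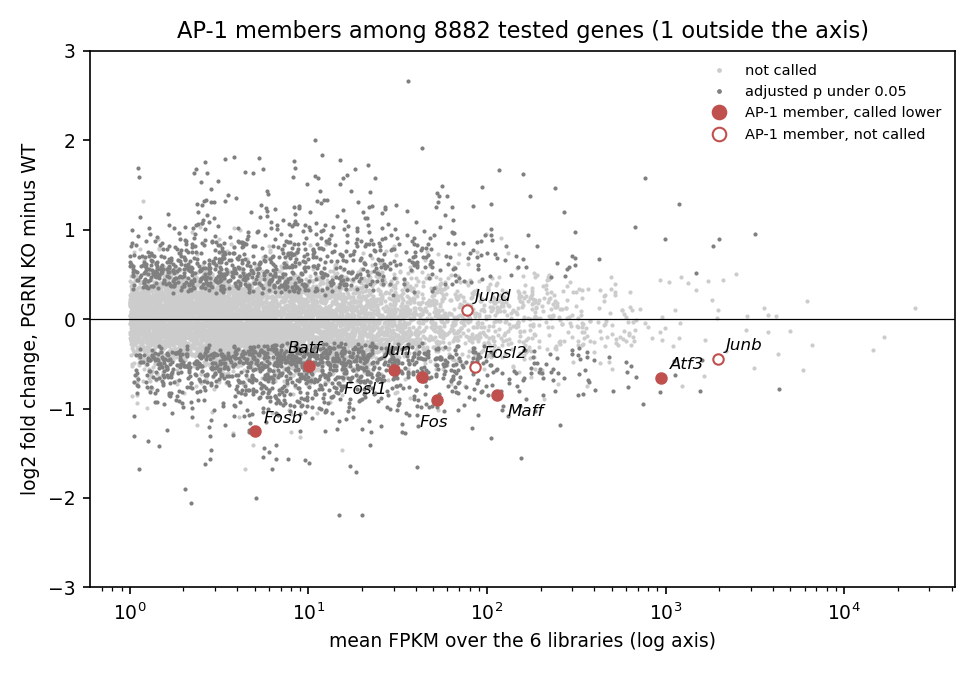
Log2 fold change (PGRN KO minus WT, FPKM + 1) against mean FPKM (log axis) for the 8882 tested genes, with the AP-1 members in red (filled where the adjusted p was under 0.05) and 1 gene outside the axis. Fosb is the lowest of the members at -1.25, and Jund at 0.10 lies among the genes that were not called.

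Neighbouring genes share bases with 5 of the members, each on the opposite strand, and the strand setting of the counting was not given in the sources at hand. The longest overlap was that of Ccdc85b with Fosl1 (2766 bases). Ccdc85b had 45 to 131 fragments per library, compared with 894 to 1713 for Fosl1, and did not pass (0.34, limma adjusted p = 0.397). Prdx2, a peroxiredoxin gene, overlaps Junb by 351 bases and was at 15.7 to 17.0 FPKM in the WT libraries and 16.7 to 28.9 FPKM in the others (limma adjusted p = 0.237). The antisense gene Junos overlaps Jun by 689 bases and had 42 to 68 fragments per library. Gm11175, antisense to Jund, and Gm24748, within Atf3, were at 0 in all 6 libraries. Without strand, reads from such a pair cannot be told apart.

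The wider basic leucine zipper family was described by its counts. Of 32 related genes, 26 were tested, of which 10 were lower and 1 was higher, with a median log2 fold change of -0.31. The share of lower calls, 38.5%, compares with 13.8% of the genes tested. Cebpa (9.59 ± 1.90 FPKM in WT against 4.003 ± 0.522 FPKM in PGRN KO) and Cebpd (4.74 ± 0.228 and 1.92 ± 0.173 FPKM), myeloid factors of the C/EBP family, were lower with limma adjusted p of 0.0048 and 0.00142. Bach1, a repressor that pairs with small Maf proteins, was at 22.6 ± 2.46 and 11.2 ± 3.23 FPKM (-0.98, limma adjusted p = 0.0169). Maf was the only gene of the list called higher in PGRN KO, at 0.942 ± 0.228 and 1.68 ± 0.165 FPKM (0.47, limma adjusted p = 0.0311). The log2 fold change was negative in 21 of the 26, called or not, beside 4736 of the 8882 genes tested. The calls of Bach1 and Maf were not stable: without WT replicate 1 or 2 the adjusted p was 0.0704 and 0.0727 for Bach1 and 0.111 and 0.109 for Maf, and Maf was also lost without PGRN KO replicate 4 (0.0827) or 5 (0.0751). Leaving out WT replicate 1, 2 or 3 reduced the lower calls in this list to 4, 5 or 6, and leaving out PGRN KO replicate 6 raised them to 16. Leaving out WT replicate 1, WT replicate 2 or PGRN KO replicate 4 left 0 higher calls. Over all genes tested, higher calls in those fits went from 921 to 331, 412 and 610. Lower calls over all genes went from 13.8% to 4.30%, 4.99% and 5.47% without WT replicate 1, 2 or 3. Without PGRN KO replicate 6 they were 25.1%.

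A broader set gives scale to these shares. In the deposited column of factor families, 450 transcription factors other than the members were tested. Of these, 21.3% were lower and 4.22% were higher, with a median log2 fold change of -0.18. The 70.0% of AP-1 members called lower can be read beside that value and beside 13.8%.

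**Figure D5:**
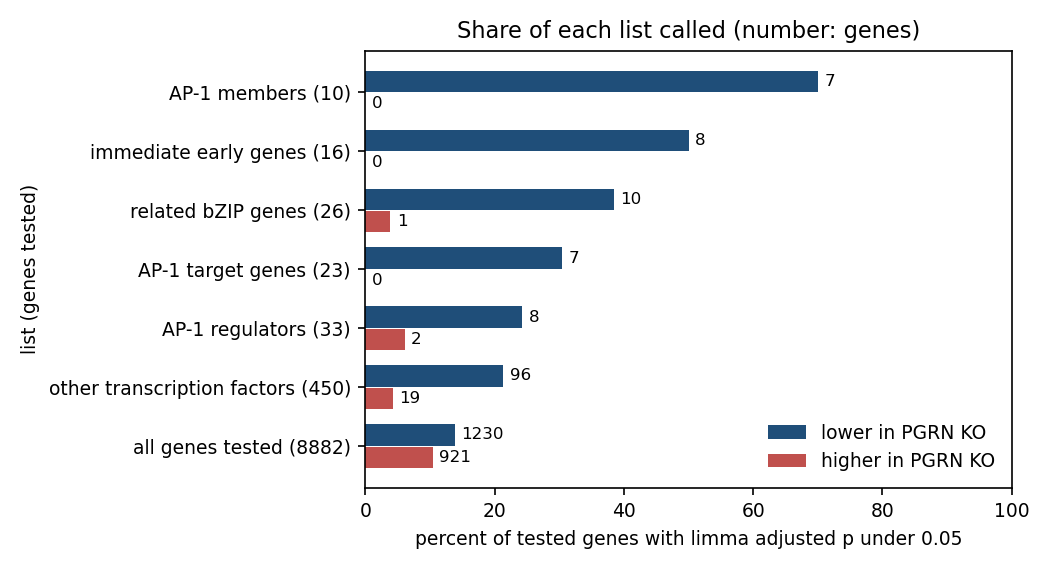
Percent of the tested genes of each list with a limma adjusted p under 0.05, as bars from 0, with genes lower in PGRN KO in blue and higher in red, the number called beside each bar and the number tested after each name. The share called lower goes from 70.0% of the AP-1 members to 13.8% of all 8882 genes tested, and the other transcription factors, with 21.3%, also hold related bZIP and immediate early genes.

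Genes that act on AP-1 were described in the same way. The list of 35 holds kinases, phosphatases, cofactors, ubiquitin ligases and also transcription factors such as Mef2d. Of these 35 genes, 33 were tested, of which 8 were lower (24.2%) and 2 were higher (6.06%), with a median of -0.19. Over all genes tested, 13.8% were lower and 10.4% higher. The regulators were near the other transcription factors, with 21.3% lower, 4.22% higher and a median of -0.18. Trib1, a pseudokinase that directs C/EBP alpha to degradation through Cop1, was at 24.7 ± 2.49 and 10.98 ± 1.025 FPKM (-1.10, limma adjusted p = 0.00175). Mef2d, a factor that acts on the Jun promoter, was at 26.3 ± 0.769 and 16.1 ± 1.08 FPKM (-0.68, limma adjusted p = 0.00353). Dusp1, the phosphatase that switches off JNK and p38, was at 332.5 ± 36.1 and 209.4 ± 21.3 FPKM (-0.66, limma adjusted p = 0.0119). Map2k3, a kinase of p38, was at 39.1 ± 2.52 and 27.6 ± 2.36 FPKM (-0.49, limma adjusted p = 0.0149).

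The 2 regulators that were higher were MAP kinases. Mapk14, which encodes p38 alpha, was at 2.68 ± 0.363 and 4.08 ± 0.552 FPKM (0.46, limma adjusted p = 0.0344), and Mapk9, which encodes JNK2, was at 2.18 ± 0.101 and 3.23 ± 0.479 FPKM (0.41, limma adjusted p = 0.0375). Mapk8, which encodes JNK1 and was named after its values were seen, was lower (-0.43, limma adjusted p = 0.0434). Leaving out single libraries removed several of these calls. Dusp1 was lost without WT replicate 1 (adjusted p = 0.0617) or 2 (0.0546). Map2k3 was lost without WT replicate 1 (0.0671), 2 (0.0557) or 3 (0.0684) or PGRN KO replicate 4 (0.0504). Mapk14 was lost without WT replicate 1 (0.133), 2 (0.122) or 3 (0.0563) or PGRN KO replicate 5 (0.0886). Mapk9 was lost without each library except PGRN KO replicate 6, at 0.0866 to 0.127. Leaving out WT replicate 1 or 2 left 2 lower calls in the list, leaving out WT replicate 3 left 3, leaving out PGRN KO replicate 4 left 4 and leaving out PGRN KO replicate 6 gave 14. In the fits without WT replicate 1, 2 or 3, 4.30%, 4.99% and 5.47% of all genes tested were lower. Without PGRN KO replicate 4 or 6 the share was 8.78% and 25.1%. The higher calls were 0 with any 1 WT replicate or PGRN KO replicate 5 left out, 1 with PGRN KO replicate 4 left out and 3 with PGRN KO replicate 6 left out. Higher calls over all 8882 genes went from 921 to 331, 412 and 397 without WT replicate 1, 2 or 3. They were 610, 739 and 1438 without PGRN KO replicate 4, 5 or 6.

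Genes known as targets of AP-1 were divided. Of 25, 23 were tested, of which 7 were lower (30.4%) and 0 higher, with a median of -0.29. Over all genes tested, 13.8% were lower and 10.4% higher, with a median of -0.03. Mmp9, a matrix-degrading protease, was at 1.79 ± 0.204 and 0.320 ± 0.138 FPKM (-1.08, limma adjusted p = 0.00211). Cd44, the hyaluronan receptor, was at 103.1 ± 5.84 and 56.0 ± 6.31 FPKM (-0.87, limma adjusted p = 0.00356). Hmox1, which encodes heme oxygenase, was at 645 ± 8.86 and 373 ± 47.1 FPKM (-0.80, limma adjusted p = 0.00565). Ptgs2, which encodes the prostaglandin enzyme COX-2, was at 5468 ± 954 and 3202 ± 694 FPKM (-0.78, limma adjusted p = 0.0393). The call of Ptgs2 was lost without any 1 WT replicate (adjusted p = 0.135, 0.134 and 0.0560) and without PGRN KO replicate 4 (0.0560) or 5 (0.0677). The other 16 tested targets did not pass, among them Il6 (-0.48, limma adjusted p = 0.157), Tnf (-0.29, 0.365) and Il1b (-0.14, 0.617), which were named after their values were seen. Without any 1 WT replicate or PGRN KO replicate 4 the lower calls in the list were 4, and without PGRN KO replicate 6 they were 11. The share of all genes tested called lower was 4.30%, 4.99% and 5.47% without WT replicate 1, 2 or 3. It was 8.78% and 25.1% without PGRN KO replicate 4 or 6.

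The other immediate early genes were also described by counts. All 16 were tested, of which 8 were lower (50%) and 0 higher, with a median of -0.47. Over all genes tested, 13.8% were lower and 10.4% higher, with a median of -0.03. Nr4a2, an orphan nuclear receptor, was at 10.1 ± 0.626 and 2.52 ± 0.670 FPKM (-1.67, limma adjusted p = 0.00142). Its relative Nr4a3 was at 92.5 ± 12.7 and 45.9 ± 11.6 FPKM (-1.02, limma adjusted p = 0.0146). Egr1 and Egr2, zinc finger factors induced through the same MAP kinases as Fos, were at 192 ± 35.8 and 109 ± 8.10 FPKM (-0.80, limma adjusted p = 0.0117) and at 118 ± 3.90 and 66.7 ± 6.38 FPKM (-0.81, limma adjusted p = 0.00324). Nr4a3 was lost without WT replicate 1 (adjusted p = 0.0641) or 2 (0.0657), and Egr1 without WT replicate 1 (0.0584). Leaving out WT replicate 1, 2 or 3 left 2, 3 or 5 lower calls, leaving out PGRN KO replicate 4 or 5 left 5, and leaving out PGRN KO replicate 6 gave 12. Over all genes tested, 4.30%, 4.99% and 5.47% were lower without WT replicate 1, 2 or 3. The share was 8.78%, 9.7% and 25.1% without PGRN KO replicate 4, 5 or 6.

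Markers of other cells moved with genotype. The 6 B cell markers summed to 4.795 to 6.08 FPKM in WT and 19.0 to 24.1 FPKM in PGRN KO, and 6 of 6 were above every WT library in every PGRN KO library. That pattern was found in 1883 of the 8882 genes tested, and 3 of the B cell markers and 2 of the mast cell markers were among the genes tested. The 6 mast cell markers summed to 2.29 to 3.19 and 9.72 to 14.0 FPKM, with 5 of 6 above every WT library. The 6 fibroblast or mesothelial markers summed to 0.925 to 1.06 and 1.92 to 3.50 FPKM, and the 6 T cell markers to 2.26 to 3.40 and 3.18 to 5.37 FPKM. The 7 neutrophil markers summed to 48.8 to 53.1 and 21.4 to 26.4 FPKM, nearly all of it from S100a8, while the defining genes Ly6g and Elane were at 0. The dendritic cell markers summed to 1.77 to 2.23 and 1.08 to 1.36 FPKM with Cd209a at 0, and the eosinophil markers to at most 0.249 FPKM with Epx and Prg2 at 0. The 6 heat shock genes, listed as possible markers of handling stress, summed to 199.4 to 214.4 FPKM in WT and 138.4 to 145.5 FPKM in PGRN KO. Most of that sum came from Hsp90aa1. Hspb1, too low to be tested, overlapped between groups at 0.580 to 0.753 and 0.564 to 1.35 FPKM. Of the 5 tested, 4 were lower, compared with 13.8% of the genes tested. Their part in the AP-1 differences was not tested.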

How the data were processed

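Macrophage RNA was sequenced in 6 libraries. The authors aligned the reads, counted fragments per gene and deposited FPKM for 54532 genes. The submitters' processing notes name mm10 and GRCm38, CASAVA, HISAT2 2.0.5, featureCounts 1.5.0-p3 and DESeq2 1.20.0, whereas the study's methods name other tools and versions, so the upstream versions are not settled. Per the file headers, the table also holds gene length, coordinates and factor family. FPKM times length gave whole multiples of 1 step, within 0.001 of a step, for 100.0% of values, from which fragments were recovered. The library size used by the authors was 0.925 to 1.09 times the sum of these fragments. The limma intervals rest on the spread between libraries.

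Values were analysed as log2(FPKM + 1). Genes with a mean of at least 1 FPKM, 8882 in all, were tested between genotypes by limma 3.58.1 (R 4.3.3, empirical Bayes with a mean-variance trend, two-sided, no covariates, Benjamini-Hochberg over all genes tested, threshold 0.05). The code was tested on simulated data. The authors' count model was not used as the main test because the deposited values are FPKM. A count-based fit (voom on the recovered fragments) was 1 of 17 alternatives, which also changed the pseudocount, filter, scaling, length correction, variance trend and library weights or left out 1 library. Ratios were compared with exact permutation tests.

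The members and lists were chosen with earlier results of these data known. Named genes were Grn, the 10 members, genes overlapping them and, from each other list, up to 4 genes in each direction that passed with groups that did not overlap. Any other gene of these lists that is named is marked, and single cell type markers were named outside this rule. Of the genes that the rule named, 1 is not reported here. Coordinates are those of the table. They equalled GENCODE M21 for 9 members, and the interval of Fosl1 differed slightly. Promoters are from RefSeq. The planned comparison of protein sequences was not made, and proteins were not used here.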

Additional observations from a re-analysis of the deposited data

How the results depend on the processing

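Alternatives were run for the members, Grn and the other genes named by rule. These kept their direction under each alternative, with the exception of Jund, which turned from 0.10 to -0.12 without PGRN KO replicate 6, to -0.11 with a length correction and that library left out, and to -0.084 with sample quality weights. Leaving out 1 library gave Jund values from -0.12 to 0.225. Over these genes, 444 values kept direction and side of the threshold, 11 came to pass and 47 no longer passed. The number of members called lower was 7 and ranged from 4 to 9 when 1 library was left out. It was 7 to 9 under the other alternatives, and the number higher was 0 throughout. Leaving out 1 library gave 4 to 16 lower and 0 to 1 higher calls for related bZIP genes, 2 to 14 and 0 to 3 for regulators, 4 to 11 lower for targets and 2 to 12 lower for immediate early genes. In those fits, 4.30% to 25.1% of all genes tested were lower, and 331 to 1438 of the 8882 were higher.

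For related bZIP genes, higher calls were 0 without a filter or with a mean of at least 5 FPKM, 2 with quantile normalisation, the sum of fragments as library size, a length correction or voom, and 3 with sample quality weights. Their lower calls were 16 with a length correction and PGRN KO replicate 6 left out, and 18 with sample quality weights. For regulators, higher calls were 1 without a filter or on the TPM scale, 0 with a mean of at least 5 FPKM and 6 with sample quality weights. Their lower calls were 5 without a filter, on the TPM scale or with the sum of fragments, 13 with a length correction and PGRN KO replicate 6 left out, and 15 with sample quality weights. For targets, higher calls were 1 on the TPM scale and with quantile normalisation, the sum of fragments, sample quality weights or voom. Their lower calls were 4 without a filter, 11 with a length correction, with or without PGRN KO replicate 6, and 13 with sample quality weights. For immediate early genes, lower calls were 3 without a filter, where 22912 genes were tested. Over all genes tested, lower calls were 3.33% without a filter, 6.83% on the TPM scale and 7.81% with the sum of fragments. They were 17.09% with a length correction and 22.95% with that correction and PGRN KO replicate 6 left out. With sample quality weights they were 27.79%. Higher calls over all genes were 921 in the main fit, 603 without a filter, 529 with a mean of at least 5 FPKM and 923 on the TPM scale. There were 1069 with quantile normalisation, 1184 with the sum of fragments, 1303 with a length correction, 949 with voom and 1757 with sample quality weights. Other causes were not tested.

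Of all calls, 42.8% were higher in PGRN KO, beside 60.3% on the TPM scale and 63.0% with the sum of fragments as library size. On those scales 8 and 7 members were lower and 0 were higher. Leaving out a library reduces the samples in the fit, and sample quality weights gave PGRN KO replicate 6 a weight of 0.0899. No paired analysis was possible because the groups share no replicate numbers.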

Other observations

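The heat shock list, chosen as a possible sign of handling stress, held values that were picked out after they were seen. Whether they bear on the AP-1 differences was not tested. Hsp90aa1, a stress-inducible chaperone, had a WT mean of 176.1 ± 6.22 FPKM and a PGRN KO mean of 115.2 ± 1.35 FPKM (SD, n = 3 each), with a log2 fold change of -0.61 and a limma adjusted p of 0.0045. Hsph1, a chaperone that assists the HSP70 proteins, was at 6.75 ± 0.206 and 4.94 ± 0.0996 FPKM (-0.38, limma adjusted p = 0.0159). Dnajb1, their cochaperone, was at 19.3 ± 1.65 and 17.9 ± 2.37 FPKM and did not pass (-0.11, limma adjusted p = 0.528). The largest differences of the list were those of Hspa1b and Hspa1a, both at low levels. Hspa1b was at 2.17 ± 0.516 and 0.913 ± 0.0309 FPKM (-0.72, limma adjusted p = 0.0106). Hspa1a was at 2.19 ± 0.229 and 1.06 ± 0.039 FPKM (-0.63, limma adjusted p = 0.00602).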
